A study of Mus musculus with 6 samples.

Results

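The genes described here were the heat shock proteins, the other molecular chaperones that belong to the same families, and 4 cochaperones that serve steroid receptors, in the *Kiss1* cells of the medial amygdala (MeA) of female mice. Members were picked by a rule on gene symbols that did not read the measured values. They were chosen with earlier results of these data known. The rule took the HSP90 genes, *Hspa*, *Hspb*, *Hspd*, *Hspe* and *Hsph* genes, the *Dnaja*, *Dnajb* and *Dnajc* genes, the numbered *Cct* subunits, the *Pdia* and *Bag* genes, and *Fkbp4*, *Ptges3*, *Stip1* and *Ahsa1*. The rule found 84 genes with 83 symbols among the 13886 protein-coding genes measured, since *Hspa14* is listed as 2 gene models.

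RNA on HA-tagged ribosomes was pulled down from MeA micropunches of Kiss1Cre+/Rpl22HA+/+ females, in which Cre from the *Kiss1* locus turns on the tagged ribosomal protein, and was sequenced as unstranded polyA libraries. There were 3 libraries from ovariectomized females without hormone (OVX) and 3 from ovariectomized females given estradiol (E2) over 5 days, every one made from the pooled tissue of 4 mice. Both groups had lost their ovaries at 8 weeks of age, had received E2 for 4 days and had then gone 7 days without it, so the OVX females were not naive to the hormone. The libraries held the pulled-down RNA, with no library of the whole MeA or of females without Cre analysed here.

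Chaperones bind unfolded or partly folded proteins, and many, though not all, release them in cycles driven by ATP. HSP70 proteins take their clients from J-domain proteins (the DNAJ families) and are reset by nucleotide exchange factors such as the BAG proteins and HSP110, while chaperonins enclose a client in a chamber. The receptors for estradiol, progesterone and glucocorticoid are classical HSP90 clients: HSP70 and a J-domain protein receive the receptor, STIP1 (HOP) hands it to HSP90, and PTGES3 (p23) and FKBP4 (FKBP52) hold it ready to bind hormone.

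Scaled library sizes were 28.1M to 34.2M reads in OVX and 30.3M to 34.0M in E2 libraries. Values are the deposited log2 CPM (read counts scaled to library size), a difference is the E2 mean minus the OVX mean on that log2 scale, and its standard error (SE), 95% interval and adjusted p come from limma over all 13886 genes. Where 3 values of a group follow each other they are those of replicates 1, 2 and 3. p-values measure only the spread between these pools, and reads carried no molecular identifiers. As a check of the labels, the *Kiss1* gene model ENSMUSG00000115958 averaged a log2 CPM of 1.75 in OVX and 3.66 in E2 libraries (adjusted p = 0.00475, and 0.329 when fitted without the mean-variance trend). Markers of cells outside the *Kiss1* population were present: the 6 oligodendrocyte markers had a median log2 CPM of 7.70, and their summed CPM ran from 1563 to 2195 in OVX and from 1711 to 2408 in E2 libraries. Summed CPM of the 6 forebrain excitatory neuron markers ran from 872 to 1133 in OVX and from 676 to 870 in E2 libraries, lower on average with E2 for all 6 genes, of which 0 passed the threshold. In such bulk RNA, fewer cells of a type and less RNA per cell cannot be told apart.

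With limma, 0 members were called higher and 0 lower with E2 at an adjusted p under 0.05, where 0.288% of all genes did (0.23% higher and 0.0576% lower with E2). At an unadjusted p under 0.05 there were 8 of 84 members (9.52%), 6 with the higher mean in E2 and 2 with the lower, against 8.56% of all genes (4.21% higher and 4.34% lower). That count was 3 without E2 replicate 1 and 5 without OVX replicate 1. The voom-weighted fit and the fit with robust empirical Bayes each also gave 0 members at the adjusted threshold and 8 at the unadjusted one. The E2 libraries lay entirely above or below the OVX libraries in 8 members (9.52%), a smaller share than the 13.7% of all genes, and in each of the 8 the E2 libraries were the higher ones (of all genes, 6.85% did not overlap with E2 higher and 6.82% with E2 lower). The members' median difference was 0.01, beside 0.00 for all genes, and single differences ran from -0.48 (*Hspa1l*) to 0.42 (*Dnajc21*).

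The precision of these values differed with the level of the gene. The 95% interval of the difference lay wholly between -0.5 and 0.5 in 67 of 84 members (79.8%), beside 70.3% of all genes, and the median SE was 0.073 in members and 0.107 in all genes. In the other 17 members the interval reached beyond that range, and each of the 17 had a mean log2 CPM under 5. For each member with a mean log2 CPM of 5 or more, a difference of 0.5 in either direction therefore lay outside the interval, while for sparse ones such as *Hspb1*, *Bag3* and *Hspa1l* it did not.

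**Figure D1:**
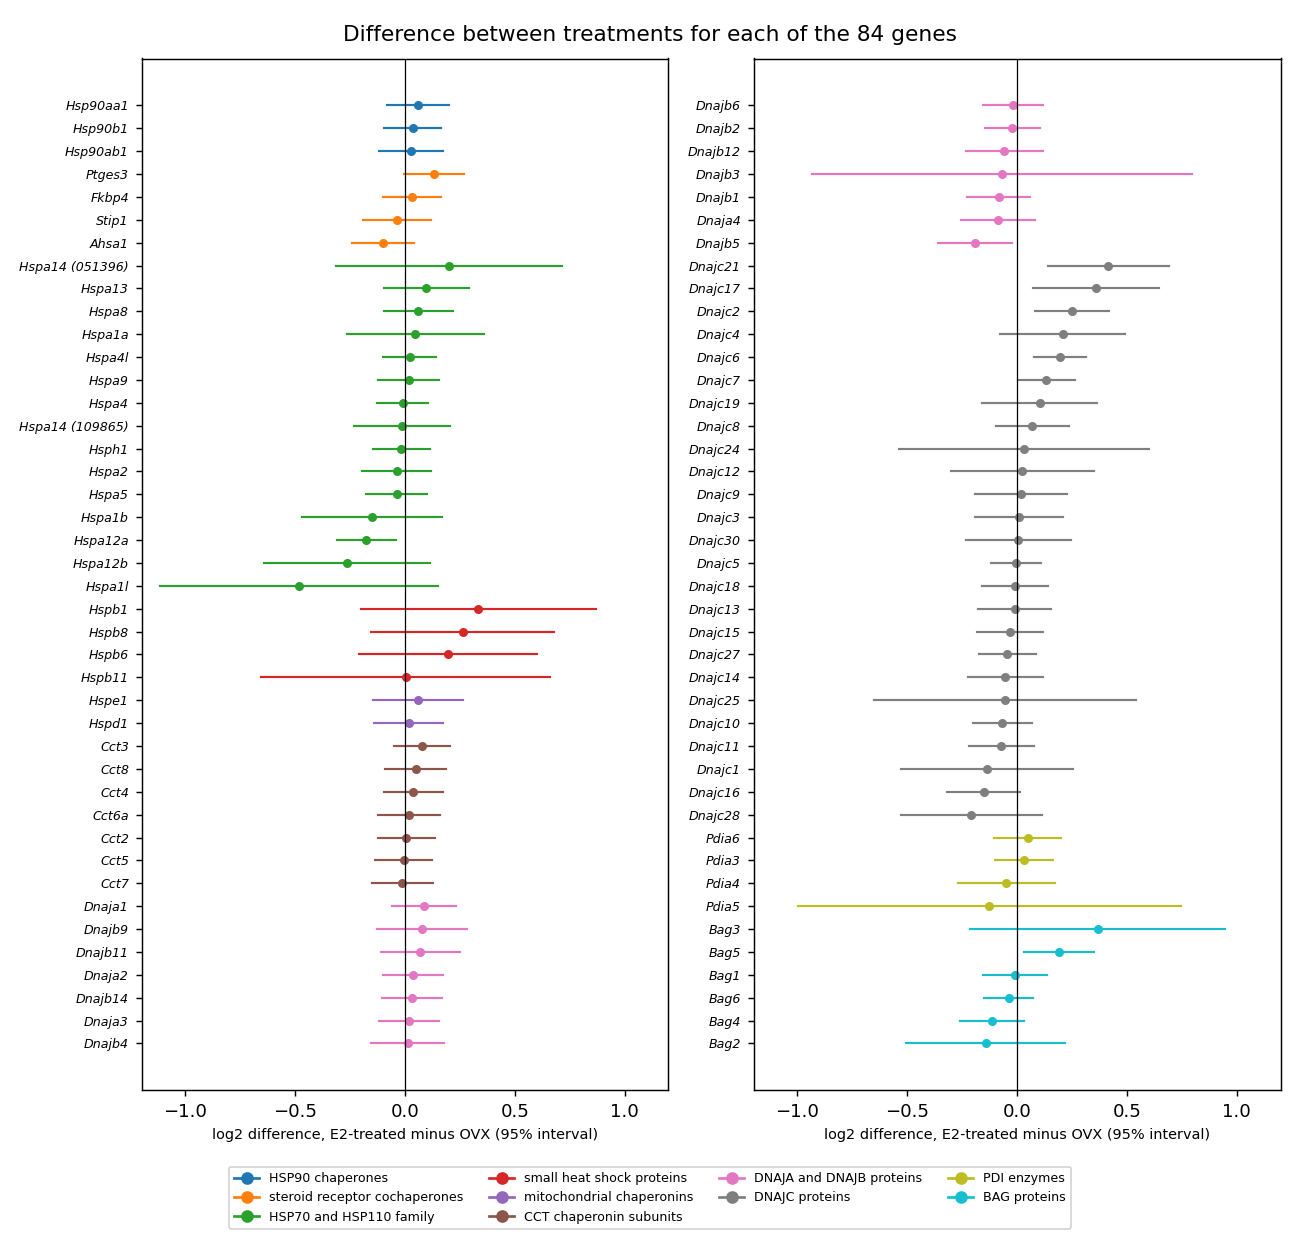
Differences in log2 CPM (E2 mean minus OVX mean) with 95% intervals for the chaperone and cochaperone genes, grouped by class. The abundant classes sit in narrow intervals around 0, and the widest intervals belong to genes with a mean log2 CPM under 5.

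Several of these transcripts were among the most abundant in the pulled-down RNA. Summed over all 84 members they made up 1.58% to 1.73% of CPM in OVX and 1.63% to 1.79% in E2 libraries, and these ranges overlapped. All 84 had a CPM over 1 in all 6 libraries, 22 were among the 1000 genes with the highest mean log2 CPM, 14 had a mean of 8 or more, and 11 had a mean under 3. On the level per transcript length (mean log2 CPM minus log2 of the transcript length in kb), the median member stood at 4.32 and the median gene at 2.97. Per kb, *Hspa8* ranked 7 and *Hsp90ab1* ranked 9 of the 13881 genes with a length, *Hsp90aa1* ranked 37 and *Hsp90b1* ranked 342.

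**Figure D2:**
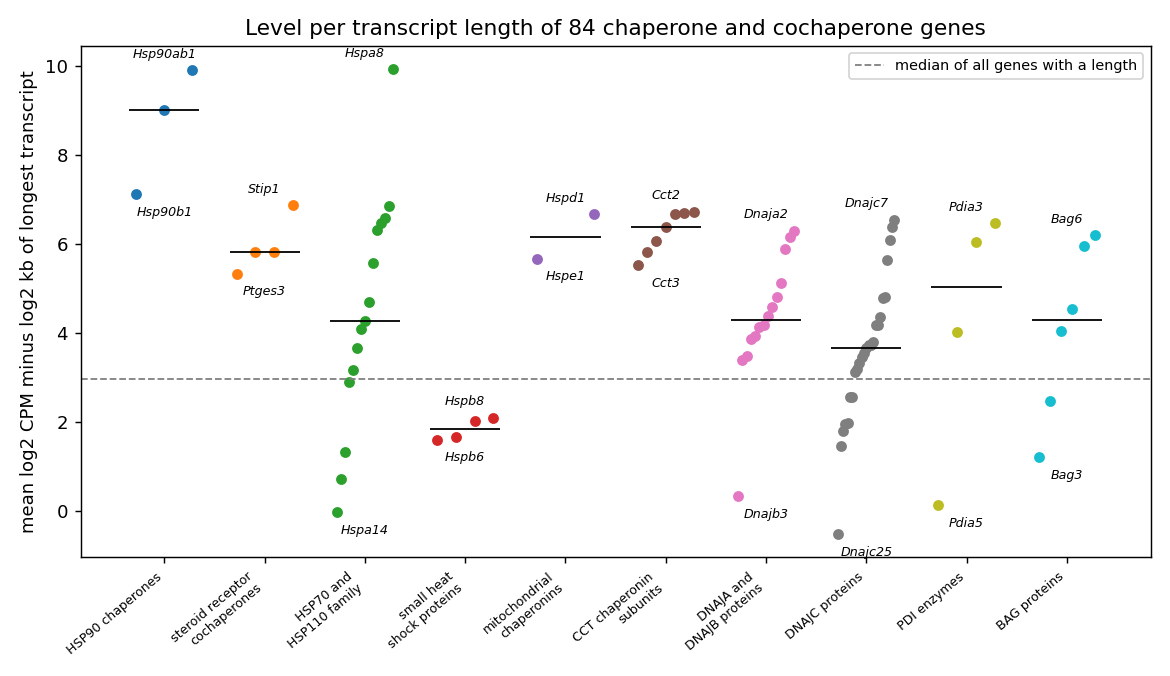
Level per transcript length (mean log2 CPM of the 6 libraries minus log2 of length in kb) of the members, by class. *Hspa8*, *Hsp90ab1* and *Hsp90aa1* stand at 9.93, 9.90 and 9.01, and the CCT subunits lie within a span of 1.21.

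The HSP90 genes, the core of the receptor-holding machine, overlapped between groups. *Hsp90ab1*, the constitutive cytosolic HSP90 (chromosome 17 from 45567775 to 45573271, GRCm38), had log2 CPM of 11.26, 11.13 and 11.29 in OVX and 11.21, 11.36 and 11.19 in E2 libraries. *Hsp90aa1*, the cytosolic HSP90 that heat induces further (chromosome 12 from 110690605 to 110702728), had values of 10.72, 10.62 and 10.75 in OVX and 10.69, 10.86 and 10.72 in E2 libraries. In both genes the lowest library was OVX replicate 2, the highest was E2 replicate 2, and the groups overlapped. Differences were 0.03 (SE 0.07, 95% interval -0.12 to 0.17, adjusted p = 0.957) for *Hsp90ab1* and 0.06 (SE 0.07, 95% interval -0.08 to 0.20, adjusted p = 0.871) for *Hsp90aa1*. For *Hsp90aa1*, 53.1% of the 75-base windows of its longest transcript also occur in another gene, mostly the pseudogene *Gm12346*, so its count depends on how shared reads were assigned. *Hsp90b1* (GRP94), the HSP90 of the endoplasmic reticulum (ER), measured 8.81, 8.72 and 8.85 in OVX and 8.86, 8.90 and 8.74 in E2 libraries, again overlapping, with a difference of 0.04 (SE 0.06, 95% interval -0.09 to 0.17, adjusted p = 0.931). Quantile normalization moved the *Hsp90ab1* difference to 0.18 with an adjusted p of 0.321, the lowest among its alternatives, which reached 0.997.

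**Figure D3:**
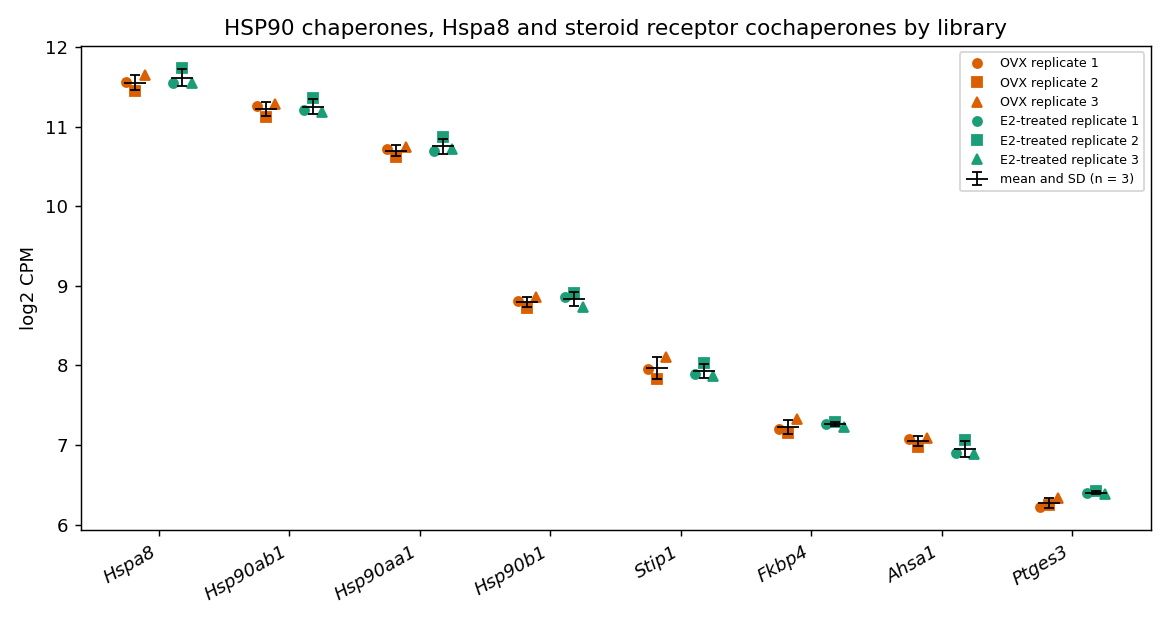
Log2 CPM in each of the 6 libraries for the HSP90 genes and the steroid receptor cochaperones, with the mean and SD (n = 3) of each group. OVX and E2 libraries overlap in each gene shown except *Ptges3*, whose 3 E2 libraries lie above the 3 OVX libraries.

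The cochaperones of the receptor cycle were well expressed and, apart from *Ptges3*, overlapped between groups. *Stip1*, the adaptor that joins HSP70 to HSP90, had log2 CPM of 7.96, 7.83 and 8.11 in OVX and 7.89, 8.03 and 7.86 in E2 libraries. *Fkbp4*, the immunophilin that aids the progesterone and glucocorticoid receptors, gave 7.21, 7.15 and 7.33 in OVX and 7.27, 7.28 and 7.23 in E2 libraries. *Ahsa1*, which speeds the HSP90 ATPase, gave 7.08, 6.98 and 7.09 in OVX and 6.90, 7.06 and 6.89 in E2 libraries. OVX replicate 3 was the highest OVX library and E2 replicate 2 the highest E2 library for *Stip1*, *Fkbp4* and *Ahsa1*. Their differences were -0.03 (SE 0.07, 95% interval -0.19 to 0.12, adjusted p = 0.946), 0.03 (SE 0.06, 95% interval -0.10 to 0.17, adjusted p = 0.936) and -0.10 (SE 0.07, 95% interval -0.24 to 0.04, adjusted p = 0.748), in that order. *Ptges3* (p23), which helps hold the receptor ready to bind hormone (chromosome 10 from 128058954 to 128077272), was the exception in overlap, at 6.22, 6.25 and 6.34 in OVX and 6.40, 6.42 and 6.38 in E2 libraries. Its lowest E2 library was above its highest OVX library, and its difference was 0.13 (SE 0.06, 95% interval -0.0034 to 0.27, adjusted p = 0.600), which missed both the adjusted threshold and an unadjusted p of 0.05. Over the 10 genes that load steroid receptors (these cochaperones, *Hsp90aa1*, *Hsp90ab1*, *Hspa8*, *Dnajb1*, *Dnaja1* and *Bag1*), 0 reached an unadjusted p under 0.05, 1 did not overlap, and the median difference was 0.03.

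Among the receptors that these proteins hold, *Esr1*, estrogen receptor alpha, had log2 CPM of 5.25, 4.93 and 5.30 in OVX and 4.62, 4.39 and 4.35 in E2 libraries, with no overlap between groups, and fell by 0.70 with E2 (SE 0.12, adjusted p = 0.0189). Its call was lost without the mean-variance trend (adjusted p = 0.407) and when OVX replicate 1, OVX replicate 3 or E2 replicate 2 was left out (adjusted p up to 0.101). *Pgr*, the progesterone receptor, had a difference of 0.32 (SE 0.11, 95% interval 0.09 to 0.56, adjusted p = 0.392) and *Esr2*, estrogen receptor beta, one of -0.97 (SE 0.25, 95% interval -1.50 to -0.43, adjusted p = 0.191), both with groups that did not overlap. *Nr3c1*, the glucocorticoid receptor, and *Nr3c2*, the mineralocorticoid receptor, had differences of -0.03 (adjusted p = 0.969) and 0.10 (adjusted p = 0.866). Whether receptor and chaperone differences differ from one another was not tested.

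Partners of HSP70 and HSP90 outside the naming rule gave 0 of 18 genes past the threshold (beside 0.288% of all genes). At an unadjusted p under 0.05 there was 1 (5.56%, beside 8.56%), *Fkbpl*, with a difference of 0.35 (adjusted p = 0.572). *Fkbp5*, the glucocorticoid-induced immunophilin that competes with FKBP4 for the receptor, had values of 5.36, 5.19 and 5.11 in OVX and 5.24, 5.38 and 5.42 in E2 libraries and a difference of 0.12 (adjusted p = 0.780).

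Among the HSP70 genes, *Hspa8* (Hsc70), the constitutive cytosolic HSP70 that also strips clathrin from vesicles (chromosome 9 from 40800984 to 40810087), had log2 CPM of 11.57, 11.45 and 11.65 in OVX and 11.55, 11.74 and 11.55 in E2 libraries. The OVX and E2 libraries overlapped, and the difference was 0.06 (SE 0.07, 95% interval -0.10 to 0.22, adjusted p = 0.896). Quantile normalization moved that difference to 0.23 with an adjusted p of 0.393, where its alternatives ran up to 0.998, and 41.3% of the gene's 75-base windows occur elsewhere, mostly in *Gm15459*. Per kb, *Hspa8* exceeded the stress-inducible *Hspa1a* by 6.42 to 6.98 on the log2 scale in the 6 libraries (a 108-fold ratio on average). The inducible pair, *Hspa1a* and *Hspa1b*, stood at 3.17 and 2.90 per kb, near the median gene at 2.97, and was variable. *Hspa1a* had values of 4.50, 4.51 and 5.14 in OVX and 4.71, 4.76 and 4.81 in E2 libraries and *Hspa1b* of 4.60, 4.25 and 4.54 in OVX and 4.55, 3.97 and 4.42 in E2 libraries. Each of the pair has most of its windows in the other (61.7% and 55.8% of windows shared with any gene), so the split of reads between them is uncertain, and their differences were 0.05 (SE 0.14, 95% interval -0.27 to 0.36, adjusted p = 0.970) and -0.15 (SE 0.15, 95% interval -0.47 to 0.17, adjusted p = 0.858).

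*Hspa12a*, a divergent HSP70 relative that is abundant in brain, reached an unadjusted p under 0.05 with the lower mean in E2, at 8.26, 8.06 and 8.23 in OVX and 7.95, 8.002 and 8.06 in E2 libraries. OVX replicate 2 lay just below E2 replicate 3, so the groups overlapped, and the difference was -0.18 (SE 0.06, 95% interval -0.31 to -0.04, adjusted p = 0.422). Its relative *Hspa12b*, known from endothelium, had a difference of -0.27 (adjusted p = 0.745), beside summed endothelial and mural marker CPM of 139 to 264 in OVX and 161 to 213 in E2 libraries, whose part in it was not tested. *Hspa1l* had the most negative difference of all members, at -0.48 (SE 0.29, 95% interval -1.12 to 0.15, adjusted p = 0.716), with values of 2.62, 1.62 and 2.58 in OVX and 1.50, 1.79 and 2.08 in E2 libraries. Those values overlapped, and 71.1% of its windows are shared, mostly with *Gm10501*. Over the 15 genes of the HSP70 and HSP110 family the median difference was -0.01, and the 2 models that the deposited table names *Hspa14*, a ribosome-associated HSP70, had differences of -0.01 (adjusted p = 0.989) for ENSMUSG00000109865 and 0.20 (adjusted p = 0.889) for ENSMUSG00000051396. GENCODE M21 names the latter *Gm45902*, so whether its value belongs to *Hspa14* is uncertain. *Hsph1* and *Hspa4*, HSP110 proteins that release ADP from HSP70, had differences of -0.02 (adjusted p = 0.977) and -0.01 (adjusted p = 0.985).

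The 25 DNAJC proteins were the largest class. Groups did not overlap in 6 of them (24.0%, beside 13.7% of all genes), and 5 had an unadjusted p under 0.05 (20.0%, beside 8.56%), each with the higher mean in E2, counts of a class for which no test was made. *Dnajc6* (auxilin), which recruits HSC70 to clathrin coats at synapses (chromosome 4 from 101496648 to 101642799), had the smallest p of all members. Its log2 CPM were 8.71, 8.67 and 8.71 in OVX and 8.85, 8.98 and 8.84 in E2 libraries. The 3 OVX libraries lay close together below the 3 E2 libraries, and the difference was 0.20 (SE 0.06, 95% interval 0.08 to 0.32, adjusted p = 0.264). Of the other synaptic and vesicle members, *Dnajc5* (CSP alpha), the J-domain protein of synaptic vesicles, had a difference of -0.0035 (adjusted p = 0.993) and the endosomal *Dnajc13* one of -0.01 (adjusted p = 0.989), with overlapping groups in both.

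A pair of ribosome-linked J-domain proteins were next by p. *Dnajc21*, needed to mature the large ribosomal subunit (chromosome 15 from 10446756 to 10470516), had log2 CPM of 3.67, 3.83 and 3.96 in OVX and 4.33, 4.32 and 4.06 in E2 libraries. *Dnajc2*, which sits on translating ribosomes (chromosome 5 from 21757267 to 21785251), had 5.36, 5.32 and 5.32 in OVX and 5.58, 5.67 and 5.49 in E2 libraries. Neither gene overlapped between groups, and the differences were 0.42 (SE 0.13, 95% interval 0.14 to 0.69, adjusted p = 0.321) and 0.25 (SE 0.08, 95% interval 0.08 to 0.42, adjusted p = 0.321). *Dnajc17*, a nuclear protein tied to splicing, had values of 3.39, 3.50 and 3.58 in OVX and 3.91, 3.94 and 3.70 in E2 libraries and a difference of 0.36 (SE 0.13, 95% interval 0.07 to 0.65, adjusted p = 0.433). *Dnajc7*, which binds both HSP70 and HSP90, had values of 7.68, 7.66 and 7.74 in OVX and 7.80, 7.93 and 7.75 in E2 libraries and a difference of 0.13 (SE 0.06, 95% interval 0.0043 to 0.26, adjusted p = 0.564). The groups of *Dnajc4* did not overlap either, with a difference of 0.21 (SE 0.13, 95% interval -0.08 to 0.49, adjusted p = 0.730). Leaving out any 1 library changed the sign of the difference in none of *Dnajc6*, *Dnajc21*, *Dnajc2*, *Dnajc17* and *Dnajc7*, and none of them passed the adjusted threshold in any of those fits.

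**Figure D4:**
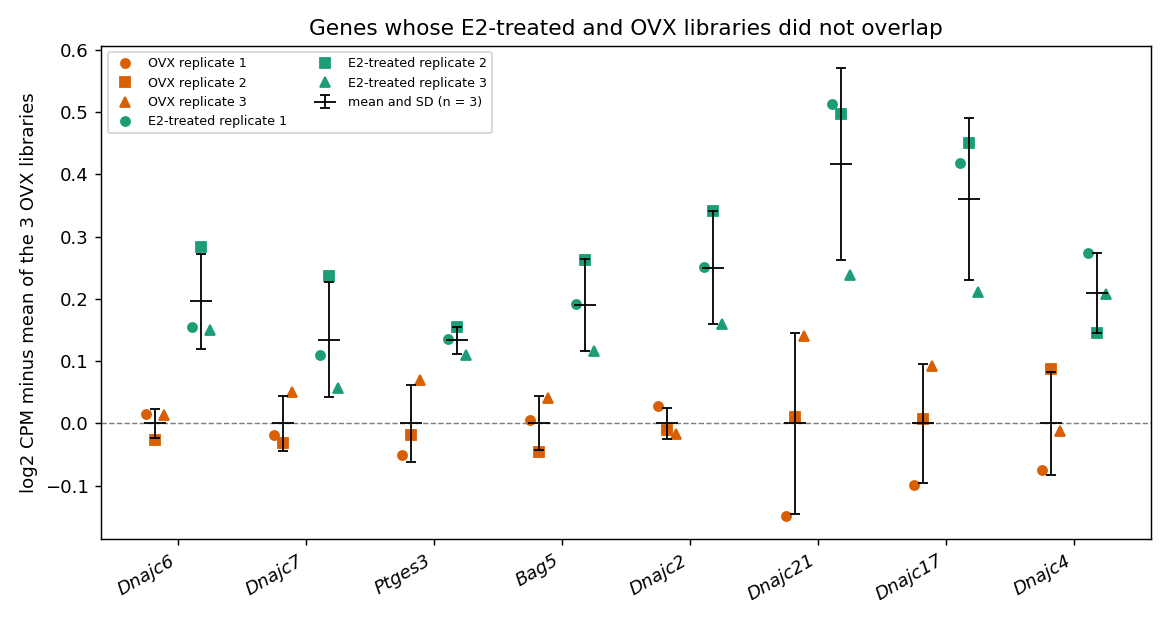
Log2 CPM of each library minus the mean of the 3 OVX libraries, for the 8 members whose OVX and E2 libraries did not overlap, with the group mean and SD (n = 3). The largest difference between group means is that of *Dnajc21*, at 0.42, and *Ptges3* in E2 libraries has a small spread, with an SD of 0.02.

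Other DNAJC genes ranged widely. Differences in the class ran from -0.21 (*Dnajc28*) to 0.42, and the median was 0.01. *Dnajc16*, of which the function is less known, had -0.15 (adjusted p = 0.613), and *Dnajc25*, the lowest member per kb at -0.51, had -0.05 (adjusted p = 0.985) with a wide SE of 0.28. Of the 14 DNAJA and DNAJB genes, *Dnajb5* alone reached an unadjusted p under 0.05, at 6.89, 6.63 and 6.95 in OVX and 6.63, 6.60 and 6.67 in E2 libraries and a difference of -0.19 (SE 0.08, 95% interval -0.36 to -0.02, adjusted p = 0.501). OVX replicate 2 of *Dnajb5* lay within the range of the E2 libraries, and the other OVX libraries lay above it. *Dnaja1* and *Dnajb1*, which deliver clients to cytosolic HSP70, had differences of 0.09 (adjusted p = 0.799) and -0.08 (adjusted p = 0.802), and the testis-type *Dnajb3* was barely expressed, at a mean log2 CPM of 0.45 in OVX and 0.38 in E2 libraries.

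*Bag5*, a nucleotide exchange factor of HSP70, was the 1 of 6 BAG genes whose groups did not overlap, at 5.54, 5.49 and 5.58 in OVX and 5.73, 5.80 and 5.65 in E2 libraries, with a difference of 0.19 (SE 0.07, 95% interval 0.03 to 0.35, adjusted p = 0.480). *Bag6*, which guards tail-anchored and misfolded proteins, was the most abundant at a difference of -0.04 (adjusted p = 0.906). *Bag3*, the stress-induced partner of small heat shock proteins, was the least abundant and had a difference of 0.37 (SE 0.27, 95% interval -0.21 to 0.95, adjusted p = 0.782), its OVX libraries alone spreading by an SD of 0.62.

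Of the 16 members listed as heat-inducible targets of heat shock factor 1, 0 passed the adjusted threshold, beside 0.288% of all genes. The list includes the constitutive *Hspa8* and *Hsp90ab1*, and whether the factor drives these genes in these cells was not tested. Of the 16, 0 reached an unadjusted p under 0.05 (beside 8.56% of all genes) and 0 had groups that did not overlap (beside 13.7%). The mean was higher in E2 for 11 (68.8%, beside 51.0% of all genes) and in OVX for 5. The median difference was 0.04. The heat shock factor genes *Hsf1*, *Hsf2* and *Hsf4*, with the factor-binding *Hsbp1*, gave 0 of 4 past the threshold (beside 0.288% of all genes). *Hsf1* had a difference of -0.03 (adjusted p = 0.966) and *Hsf4* one of 0.28 (adjusted p = 0.480). All 4 small heat shock proteins were sparse, at 1.61 to 2.11 on the scale per kb, and their differences were 0.33 (adjusted p = 0.788) for *Hspb1*, 0.26 (adjusted p = 0.785) for *Hspb8*, 0.20 (adjusted p = 0.849) for *Hspb6* and 0.0039 (adjusted p = 0.999) for *Hspb11*, which acts in intraflagellar transport. In *Hspb1*, 47.3% of windows are shared with other genes.

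Heat shock factor 1 binds repeats of a short element, and the promoters of 4 of 70 members with a RefSeq window (5.71%) hold the 3-unit form GAA, TTC, GAA, with 2 bases of any kind between neighbouring units, on either strand, beside 179 of 27025 genes (0.662%): *Dnajb6*, *Hspd1*, *Hspe1* and *Hsph1*. A window spans 250 bases before to 50 after the start (GRCm38.p6), and matches on either strand can overlap. The stretch before the start of *Hspe1*, at chr1:55087898-55088147 (plus strand), spans the gap between the RefSeq starts of *Hspe1* and *Hspd1*, which lie on opposite strands. By GENCODE M21 the genes overlap there, with *Hspd1* starting at 55088243 (minus strand) and *Hspe1* at 55088132 (plus strand). The stretch is shown with that of *Dnajb6*, at chr5:29735648-29735897 (plus strand), because it holds 2 overlapping matches that lie in the windows of both *Hspe1* and *Hspd1*. Capitals mark the matches, from base -89 to base -72 in *Hspe1* and from base -46 to base -34 in *Dnajb6*, counted from the start.
Hspe1: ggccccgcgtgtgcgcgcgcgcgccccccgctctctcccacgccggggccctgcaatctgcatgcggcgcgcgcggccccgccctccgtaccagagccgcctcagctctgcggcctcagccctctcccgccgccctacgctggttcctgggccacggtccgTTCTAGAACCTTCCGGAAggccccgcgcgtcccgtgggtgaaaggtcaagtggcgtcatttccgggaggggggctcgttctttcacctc
Dnajb6: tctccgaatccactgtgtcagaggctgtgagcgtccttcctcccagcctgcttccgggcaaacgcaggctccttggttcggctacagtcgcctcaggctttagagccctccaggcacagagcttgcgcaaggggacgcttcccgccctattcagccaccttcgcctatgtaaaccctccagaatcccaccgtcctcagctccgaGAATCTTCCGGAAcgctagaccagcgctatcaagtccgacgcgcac
No member's window held the palindromic estrogen response element GGTCA and TGACC with 3 bases of any kind between them, beside 20 of 27025 genes (0.074%), which says only that these letters are not in these windows.

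The pair that shares this promoter encodes the mitochondrial chaperonin HSP60 (*Hspd1*) and its lid HSP10 (*Hspe1*). *Hspd1* had log2 CPM of 7.91, 7.79 and 8.10 in OVX and 7.97, 8.004 and 7.89 in E2 libraries and *Hspe1* of 5.52, 5.57 and 5.69 in OVX and 5.70, 5.81 and 5.45 in E2 libraries. Both overlapped between groups, with differences of 0.02 (SE 0.07, 95% interval -0.14 to 0.17, adjusted p = 0.983) and 0.06 (SE 0.09, 95% interval -0.14 to 0.26, adjusted p = 0.926), and *Hspd1* exceeded *Hspe1* per kb by 0.87 to 1.11 on the log2 scale in every library. That excess depends on how shared reads were assigned, since 33.7% of the 75-base windows of *Hspd1*, beside 3.15% of those of *Hspe1*, also occur in another gene. For *Hspd1* this was mostly *Hspd1-ps3*. Mitochondrial members as a list gave 0 of 8 at an unadjusted p under 0.05 (beside 8.56% of all genes). *Hspa9* (mortalin), the HSP70 of the mitochondrial import motor, had a difference of 0.02 (adjusted p = 0.977).

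In the ER lumen, 0 of 12 members reached an unadjusted p under 0.05 (beside 8.56% of all genes). Groups did not overlap in 0 (beside 13.7%), and the median difference was 0.02. *Hspa5* (BiP), the ER HSP70 and a sensor of unfolded proteins, had log2 CPM of 8.75, 8.66 and 8.82 in OVX and 8.71, 8.81 and 8.60 in E2 libraries and a difference of -0.04 (SE 0.06, 95% interval -0.18 to 0.10, adjusted p = 0.931), with overlapping groups. *Pdia3*, *Pdia4*, *Pdia5* and *Pdia6*, which form disulfide bonds, had differences of 0.03, -0.05, -0.13 and 0.05, and *Pdia5* was sparse, with the largest within-group SD of the members, 0.58. Of the ER J-domain proteins, *Dnajb9*, *Dnajb11*, *Dnajc1*, *Dnajc3* and *Dnajc10* had differences of 0.08, 0.07, -0.14, 0.01 and -0.07, and *Hspa13* had 0.10 (adjusted p = 0.844). Unfolded protein response genes outside the rule gave 0 of 17 past the threshold, with *Herpud1*, an ER degradation factor, at -0.15 (adjusted p = 0.538).

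The ER stress response element (CCAAT and CCACG with 9 bases of any kind between them) occurred on either strand in the windows of 4 of 70 members (5.71%) beside 37 of 27025 genes (0.137%): *Dnajc3*, *Hsp90b1*, *Hspa5* and *Pdia6*. The 250 bases before each start are shown because these 4 ER genes share the element, which capitals mark, and *Hsp90b1*, at chr10:86705445-86705694 (minus strand), holds it 2 times. *Hspa5* lies at chr2:34771840-34772089 (plus strand), with the match from base -65 to base -47, *Pdia6* at chr12:17266339-17266588 (plus strand), from base -98 to base -80, and *Dnajc3* at chr14:118937682-118937931 (plus strand), from base -105 to base -87.
Hspa5: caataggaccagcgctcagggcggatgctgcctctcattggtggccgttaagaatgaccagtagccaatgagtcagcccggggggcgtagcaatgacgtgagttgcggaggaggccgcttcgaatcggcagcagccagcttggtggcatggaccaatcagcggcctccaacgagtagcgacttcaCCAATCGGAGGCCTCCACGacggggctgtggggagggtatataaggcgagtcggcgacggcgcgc
Hsp90b1: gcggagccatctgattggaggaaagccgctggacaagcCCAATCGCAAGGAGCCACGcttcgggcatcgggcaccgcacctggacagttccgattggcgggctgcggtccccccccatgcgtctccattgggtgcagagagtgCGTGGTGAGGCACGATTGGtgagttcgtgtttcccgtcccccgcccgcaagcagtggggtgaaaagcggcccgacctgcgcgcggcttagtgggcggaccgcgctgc
Pdia6: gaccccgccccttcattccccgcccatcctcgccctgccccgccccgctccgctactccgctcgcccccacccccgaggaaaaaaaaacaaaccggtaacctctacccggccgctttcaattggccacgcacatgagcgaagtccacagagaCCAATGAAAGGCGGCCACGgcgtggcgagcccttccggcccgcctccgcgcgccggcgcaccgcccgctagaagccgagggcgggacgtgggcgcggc
Dnajc3: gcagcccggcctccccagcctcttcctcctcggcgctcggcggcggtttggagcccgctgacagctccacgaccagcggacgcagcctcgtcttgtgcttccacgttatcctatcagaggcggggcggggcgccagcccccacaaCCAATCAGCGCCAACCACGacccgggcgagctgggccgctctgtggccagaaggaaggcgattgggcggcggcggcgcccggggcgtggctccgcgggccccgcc
A match in a window is a description and was not tied to binding in these cells.

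The 7 measured CCT subunits form part of the cytosolic chaperonin ring that folds actin and tubulin, whose subunits are needed in equal number. Per kb they lay within a span of 1.21 on the log2 scale, from 5.52 (*Cct3*) to 6.73 (*Cct2*). By log2 CPM *Cct7* was the highest, at 8.02 ± 0.06 in OVX and 8.01 ± 0.11 in E2 libraries (SD, n = 3 pools each). *Cct4* was the lowest, at 7.12 ± 0.06 in OVX and 7.15 ± 0.08 in E2 libraries (SD, n = 3 pools each). Their differences ran from -0.01 (*Cct7*) to 0.08 (*Cct3*), with 0 at an unadjusted p under 0.05 (beside 8.56% of all genes). All 7 intervals lay between -0.5 and 0.5 (beside 70.3% of all genes). Other folding machines outside the rule, among them *Tcp1* (the CCT subunit with a name of its own), the prefoldins and mitochondrial proteases, gave 0 of 14 past the threshold, with *Vbp1*, a prefoldin subunit, at 0.19 (adjusted p = 0.451) and *Clpb*, a mitochondrial disaggregase, at -0.16 (adjusted p = 0.545).

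The abundant members deviated alike from library to library. Of the 31 members with a mean log2 CPM of 7 or more, a limit chosen after the values were seen, 28 (90.3%) were highest among the E2 libraries in E2 replicate 2, beside 49.0% of the 1780 genes at that level. Among the OVX libraries, 24 (77.4%, beside 44.9%) were lowest in OVX replicate 2 and 22 (71.0%, beside 42.6%) highest in OVX replicate 3. All 7 CCT subunits, the 3 HSP90 genes and the 4 steroid receptor cochaperones were highest in E2 replicate 2 among the E2 libraries. OVX replicate 2 also had the highest summed CPM among the OVX libraries for oligodendrocyte markers (2195), astrocyte markers (772) and endothelial and mural markers (264). Among the E2 libraries the order differed between these marker lists. E2 replicate 1 had the highest summed CPM for oligodendrocyte (2408), astrocyte (878) and endothelial and mural markers (213). E2 replicate 2 had the lowest for astrocyte (688) and endothelial and mural markers (161). E2 replicate 3, in which 23 of the 31 members were lowest (74.2%, beside 36.9%), had the lowest for oligodendrocyte markers (1711). Within each group, neuron markers summed lowest in OVX replicate 2 (3753). They summed highest in OVX replicate 3 (3977) and E2 replicate 2 (4086). Microglia and choroid plexus markers summed highest in OVX replicate 2 (120 and 1033) and lowest in E2 replicate 2 (92.3 and 382). Forebrain excitatory neuron markers summed lowest in OVX replicate 3 (872) and E2 replicate 2 (676). The part of these cells in the order of the libraries was not tested. Members summed to a CPM of 15800 in OVX replicate 2, the lowest OVX library, and 17920 in E2 replicate 2, the highest E2 library. Folding genes outside the rule had their lowest OVX and highest E2 sums in the same libraries. The sums were 1975 and 2106 for HSP70 and HSP90 partners and 1044 and 1110 for other folding machines. For unfolded protein response genes they were 1517 and 1591, so this order was not particular to the members.

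**Figure D5:**
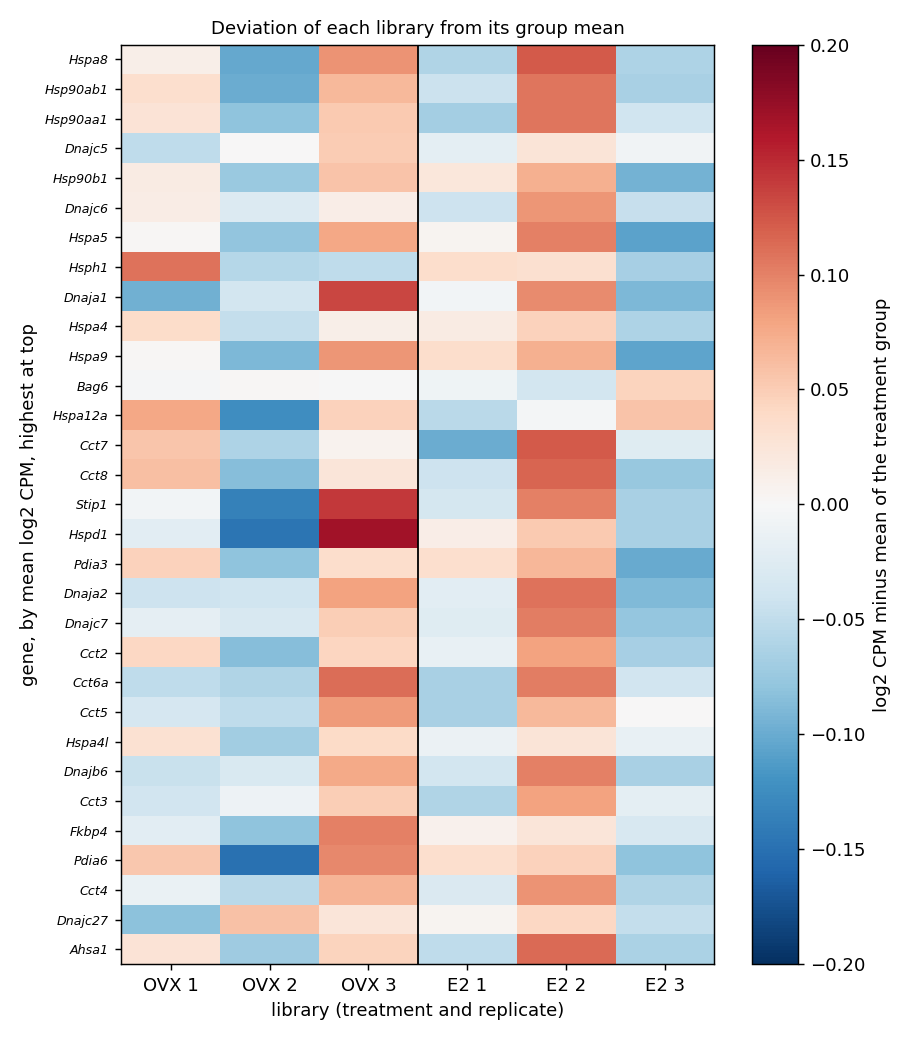
Deviation of each library's log2 CPM from its own treatment group's mean, for the 31 members with a mean log2 CPM of 7 or more, one row per gene and one column per library, with a colour scale ending at ±0.2. E2 replicate 2 is the highest E2 library in 28 of the 31 genes and OVX replicate 2 the lowest OVX library in 24.

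Spread between pools of a group was small in abundant members and large in sparse ones. A pooled within-group SD above 0.25 occurred in 10 members, each with a mean log2 CPM under 5, and the largest were those of *Pdia5* (0.58), *Hspb11* (0.52), *Bag3* (0.45), *Hspa1l* (0.45) and *Dnajc24* (0.35). Of the 8 members with an absolute difference above 0.25, 7 had a mean log2 CPM under 5, and none exceeded 0.5.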

How the data were processed

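RNA on HA-tagged ribosomes of MeA *Kiss1* cells was sequenced in 3 OVX and 3 E2 libraries, each 1 pool of 4 mice. The authors trimmed and aligned the reads to GRCm38 (FastQC 0.11.8, Trimmomatic 0.38 and STAR 2.6.0a per the submitters' processing notes), quantified them with RSEM, kept protein-coding genes whose mean CPM exceeded 1 in either group, so chaperone genes below that are not among the members, and deposited log2 CPM after TMM scaling and voom. A deposited table of the authors' comparisons (fold changes, moderated statistics and p-values) was not used. The paper's test was limma with voom weights. Since the table holds log2 CPM and no weights, the test here was limma 3.58.1 in R 4.3.3 with a mean-variance trend on all 13886 genes, a single treatment term, p-values that were 2-sided, and Benjamini-Hochberg adjustment over all genes with a threshold of 0.05, tested on simulated data. No filter was added and no pseudocount beyond the 0.5 reads that voom adds. With 3 against 3 libraries an exact permutation test could not go below p = 0.1 and was not used.

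Genes were named by these rules: all HSP90 genes and receptor cochaperones, the highest and lowest member of each class, those with the largest differences, smallest p-values or largest spread, and the heat-inducible, ER and synaptic lists. *Dnajc4*, *Cct2*, *Cct3*, *Hspa14*, *Dnajb6*, *Hsf1*, *Hsf2*, *Hsf4*, *Hsbp1*, *Fkbp5*, *Fkbpl*, *Vbp1*, *Clpb*, *Herpud1*, *Hspa9*, *Hspa4* and *Hspb6* were chosen after their values were seen. The members and lists were chosen with earlier results of these data known. Transcript lengths, positions and 75-base windows came from GENCODE M21 (GRCm38), and promoter windows from RefSeq (GRCm38.p6), which matched 70 of 83 symbols. The labels do not say whether libraries with the same replicate number were handled together, and the main fit did not pair them. Between such libraries, deviations from the group means correlated at -0.021, -0.121 and -0.083 across genes for replicates 1, 2 and 3. Alternatives were other eBayes forms, voom weights on rebuilt counts, median centring, quantile normalization, a CPM filter, log2 of CPM plus 1, a replicate block and leaving out each library. A result for 1 gene outside the members is not reported here.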

Additional observations from a re-analysis of the deposited data

How the results depend on the processing

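Under the 8 alternative settings and the 6 fits without 1 library, 0 members were called higher and 0 lower. The smallest adjusted p of a member ran from 0.104 (quantile normalization) to 0.645 (without E2 replicate 2). Over all genes 40 were called, and 0 without the mean-variance trend; leaving out 1 library gave 20 (without E2 replicate 2) to 66 (without E2 replicate 3). Members at an unadjusted p under 0.05 numbered 8, from 3 to 10 without 1 library and from 6 to 11 under the other settings. Members with groups that did not overlap numbered 8, and 11 to 23 without 1 library, where fewer values make separation easier by construction. The members' median difference of 0.01 was -0.01 without OVX replicate 2 or without E2 replicate 2 and 0.04 without OVX replicate 3. For members not past an unadjusted p of 0.05 a change of sign was not counted as a reversal. The 10 members with the highest level were the same 10 under each scaling and without each library.

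The labels link OVX and E2 libraries by no more than a replicate number. With a replicate block 0 members were called, 6 members and 885 genes reached an unadjusted p under 0.05, and the smallest adjusted p of a member was 0.558. With 3 pools a group, the 95% intervals of 17 sparse members reached past a difference of 0.5, and in 15 of them, all but *Dnajc17* and *Dnajc21*, the interval also held 0.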
